A study of Mus musculus with 6 samples.

Results

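The mitosis genes described here were 45 genes chosen by name for their known work in dividing cells, out of 32285 mouse genes in the gene lists of the libraries. All 45 symbols were found. They were read in brain lesions of C57BL/6J mice in which Foxr2, a forkhead transcription factor, had been overexpressed after in utero electroporation of plasmids into the embryonic ganglionic eminences. In the Foxr2 alone group no further alteration is given by the labels, and in the Foxr2 p53LOF group the animals also carried a loss of function of p53, made with a Cas9 plasmid and a p53 guide. Every group therefore overexpressed Foxr2, and no library without it was analysed here. The FOXR2 and Akaluc luciferase vectors were piggyBac transposons with GFP under the ubiquitous CAG promoter, delivered to whichever progenitors took up the plasmids, so that a lesion held targeted cells together with cells of the host. RNA and open chromatin were measured in the same nuclei (10x Multiome) in 1 Foxr2 p53LOF library and 2 Foxr2 alone libraries. Counts were analysed for the Foxr2 p53LOF library and for Foxr2 alone replicate 1, whereas Foxr2 alone replicate 2 contributed its peak list and barcodes, with counts not analysed here.

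A cell that divides builds up a set of proteins in G2 phase that it destroys again on leaving mitosis. Cyclins with their kinase Cdk1 start mitosis, condensin and topoisomerase II compact and untangle the chromosomes, kinetochore proteins and motor kinesins move them, and anillin, citron kinase and the centralspindlin proteins cut the cell into daughters. Mki67, the gene of the Ki-67 proliferation marker, codes for a protein that coats mitotic chromosomes. Most of these genes are kept silent in resting cells by repressor complexes that bind CHR elements and are switched on with the help of NF-Y, which binds CCAAT boxes. The genes of anillin and citron, Anln and Cit, code for scaffold proteins that also have uses in cells that no longer divide, anillin in myelin and citron in neurons.

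The promoters of the members carried these letters often. Of the 45 members, 37 had an entry in the RefSeq promoter table (build GRCm38, mm10), and in the 250 bases before the start 15 of 37 (40.5%) held both a CHR element (TTTGAA or TTTAAA) and CCAAT on either strand, against 8.995% of all 27025 promoters in the table. CCAAT alone was present in 26 of 37 (70.3%, all promoters 34.5%), TTTGAA in 14 (37.8%, all promoters 16.3%) and TTTAAA in 7 (18.9%, all promoters 12.1%). The E2F letters TTGGCG and GCGGGAA were found in 4 (10.8%, all promoters 5.98%) and 1 (2.70%, all promoters 3.84%) of the 37 members. Among 32 matched DNA replication genes, those 2 motifs were in 40.6% and 34.4% of the promoters, CCAAT in 68.8% and both a CHR element and CCAAT in 12.5%. Among 46 matched other mitosis genes, CCAAT was in 56.5%, both a CHR element and CCAAT in 23.9%, and the E2F letters in 23.9% and 6.52%. The other mitosis genes thus lay between the members and the replication genes in the share with both a CHR element and CCAAT and in the shares with the E2F letters. Of the 37, 7 held none of the 5 motifs (Anln, Cit, Knl1, Nusap1, Ncaph, Melk and Kif20b). Only the first listed start of each gene was searched. Within 100 bases before the start, 21.6% of the members and 1.81% of all promoters held both a CHR element and CCAAT. The last 130 bases before the start are shown for 4 members that held a CHR element and for Anln, which held none of the motifs, each written 5′ to 3′ on the strand of the gene, with any of the 5 motifs in capitals (ATTGG and TTCAAA are CCAAT and TTTGAA read on the opposite strand). A peak of open chromatin lay over each of these 5 starts in all 3 libraries.
Mki67 (chr7:135716380-135716509, minus strand): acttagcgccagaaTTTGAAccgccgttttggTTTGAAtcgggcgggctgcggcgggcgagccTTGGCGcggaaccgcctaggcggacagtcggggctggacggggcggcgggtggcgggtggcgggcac
Top2a (chr11:99024190-99024319, minus strand): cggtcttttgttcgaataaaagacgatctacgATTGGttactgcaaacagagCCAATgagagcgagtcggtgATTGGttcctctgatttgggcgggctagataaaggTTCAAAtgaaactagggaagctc
Kif11 (chr19:37376252-37376381, plus strand): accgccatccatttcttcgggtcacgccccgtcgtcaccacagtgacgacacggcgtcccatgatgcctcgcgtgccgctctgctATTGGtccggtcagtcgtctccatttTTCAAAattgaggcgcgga
Plk1 (chr7:122159305-122159434, plus strand): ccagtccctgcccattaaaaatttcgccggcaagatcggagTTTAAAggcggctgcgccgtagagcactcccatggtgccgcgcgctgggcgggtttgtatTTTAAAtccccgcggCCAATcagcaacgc
Anln (chr9:22389207-22389336, minus strand): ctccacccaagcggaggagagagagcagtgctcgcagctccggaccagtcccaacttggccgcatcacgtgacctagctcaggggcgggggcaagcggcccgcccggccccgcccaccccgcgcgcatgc

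In mm10 the members lay on 17 chromosomes and spanned 4.45 to 164 kb (median 30.9 kb), with Cit the longest (chr5:115845278-116008947, plus strand). Mki67 lay at chr7:135689784-135716361, Top2a at chr11:98992943-99024189 and Anln at chr9:22332012-22389188, all on the minus strand. Another annotated gene overlapped 26 of the 45, and in 9 of them that gene was protein coding. Rccd1 covered all 21810 bases of Prc1 on the opposite strand, and Cdc23 shared 2327 bases with Kif20a. Whether counting used the strand is not given in the sources used here, so reads of these pairs cannot be told apart with certainty.

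After filters, 8359 nuclei of the Foxr2 p53LOF library (60006272 UMIs, median 5527 per nucleus) and 8316 of the Foxr2 alone library (39605317 UMIs, median 3637) were kept. A UMI is 1 counted RNA molecule. The members took 63523 UMIs in the first and 16693 in the second. Nuclei were placed in 19 clusters, and clusters were named from marker genes as neuron-like, astrocyte-like, oligodendrocyte-like, OPC-like (oligodendrocyte precursor), COP-like (committed oligodendrocyte precursor) and myeloid-like, with 590 nuclei of Foxr2 p53LOF in 3 clusters left unnamed because markers of more than 1 class were high there. All 8 COP markers were high in the COP-like cluster, and 9 of the 9 astrocyte markers in the astrocyte-like cluster of Foxr2 p53LOF, although none of them was among its 10 leading genes. Nearly every cluster came from 1 library, so that most classes of the same name were made up of different clusters in the 2 libraries, apart from the OPC-like class, which was cluster 14 in both: glia-like nuclei (astrocyte-, oligodendrocyte-, OPC- and COP-like together) were mostly clusters 3, 5 and 6 in Foxr2 p53LOF and cluster 0 in Foxr2 alone, neuron-like nuclei clusters 2, 15 and 17 against clusters 1, 7, 9 and 10, and myeloid-like nuclei clusters 4 and 8 against cluster 12. With counts of 1 library per genotype analysed, there was no test between genotypes, and intervals cover counting error only, at 95%. The 2 libraries with counts shared 140 barcodes, of which 94 were kept in both, and of which 94 were kept in both, and their part in the results was not tested. The altered genes were read in the kept nuclei as a check of the labels. RNA of Foxr2 stood at 42.6 UMIs per 1000000 (CPM; 41.0 to 44.3) in Foxr2 p53LOF and 3.61 CPM (3.04 to 4.25) in Foxr2 alone, and in glia-like nuclei at 69.3 CPM and 9.83 CPM. GFP of the vectors was present in both libraries, at 324 CPM and 29.01 CPM. The p53 gene, Trp53, stood at 33.6 CPM (32.2 to 35.1) in the library labelled p53LOF and 12.9 CPM (11.8 to 14.0) in Foxr2 alone, and RNA counts over a whole gene do not show a Cas9 edit, so that the p53 label was not checked here. Cas9 had 0 UMIs in both libraries, where a count of 0 allows up to 3 UMIs in each.
Mitosis RNA was high in 3 classes of the Foxr2 p53LOF library and low in every class of the Foxr2 alone library. Levels are given as counts per 1000000 UMIs of a class (CPM), and the sum was taken over the 43 members without Anln and Cit. It reached 1605 CPM (interval 1574 to 1637) in myeloid-like nuclei, 1462 CPM (1441 to 1484) in COP-like nuclei and 1434 CPM (1410 to 1457) in astrocyte-like nuclei of Foxr2 p53LOF. The unnamed nuclei of that library stood at 1172 CPM, whereas its OPC-like nuclei stood at 241, its oligodendrocyte-like nuclei at 224 and its neuron-like nuclei at 147 CPM. In Foxr2 alone the sums lay between 130 CPM in myeloid-like and 254 CPM in OPC-like nuclei, with 171 CPM in astrocyte-like, 155 CPM in oligodendrocyte-like and 133 CPM in neuron-like nuclei. The OPC-like intervals overlapped between the libraries (190 to 300 CPM in Foxr2 p53LOF and 210 to 305 CPM in Foxr2 alone), and 25 of the 45 members had no UMI in the 423 myeloid-like nuclei of Foxr2 alone.

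**Figure D1:**
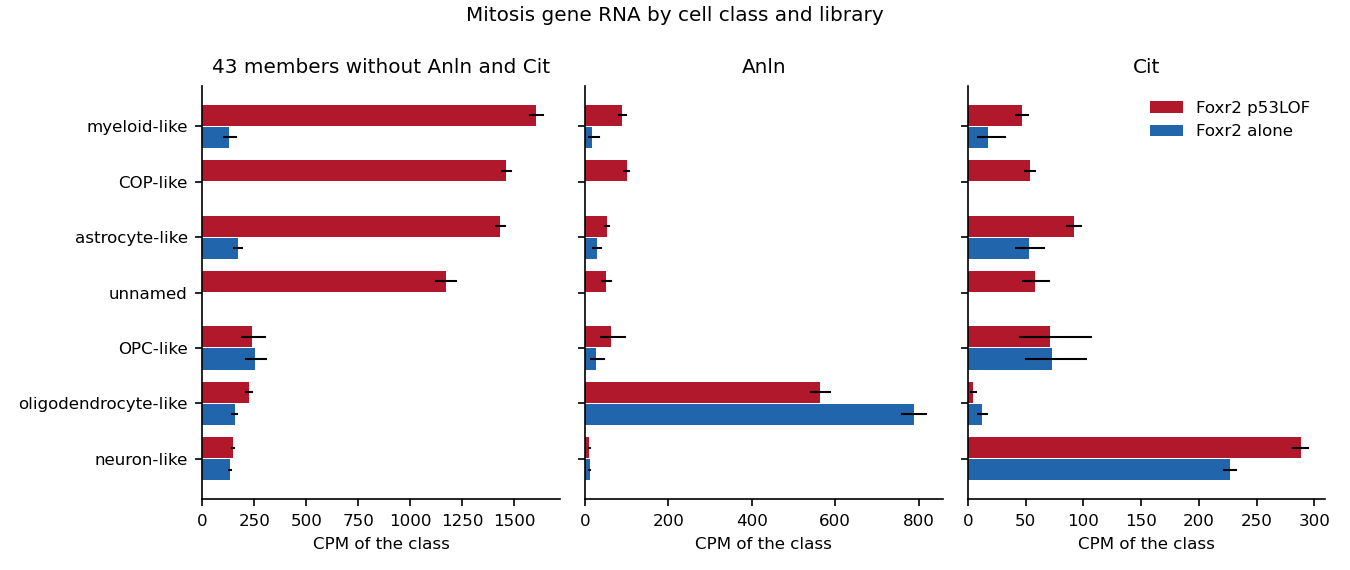
Counts per 1000000 UMIs (CPM) of each class (x axes) for the 43 members without Anln and Cit, for Anln and for Cit, by cell class (y axis), with red bars for Foxr2 p53LOF and blue bars for Foxr2 alone and black lines for 95% Poisson intervals; a missing bar is a class with under 50 nuclei in that library. The sum of 43 lies between 1172 and 1605 CPM in myeloid-like, COP-like, astrocyte-like and unnamed nuclei of Foxr2 p53LOF and between 130 and 254 CPM in the other bars, Anln is highest in oligodendrocyte-like nuclei and Cit in neuron-like nuclei of both libraries.

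The choice of clusters and limits moved part of these levels. Within the myeloid-like nuclei of Foxr2 p53LOF, cluster 4, led by genes of infiltrating myeloid cells such as S100a8, Ms4a7 and Ccr1, held 1887 CPM of the 43 members, and cluster 8, led by microglia genes such as P2ry12 and Siglech, held 894 CPM. Of the unnamed clusters, cluster 16, led by T cell genes such as Gzmb and Ctla4, held 1285 CPM, cluster 13, led by Pomc and Oacyl, 1228 CPM, and the vascular gene cluster 18, 636 CPM. With nuclei limited to at least 1000 genes and 1000 fragments, the summed level of all 45 members in astrocyte-like nuclei of Foxr2 p53LOF was 616 CPM instead of 1577 CPM, while it was 1646 instead of 1616 CPM in COP-like nuclei. Under this limit the astrocyte-like class of Foxr2 p53LOF was 118 nuclei, of which 7 were in the class of 1105 nuclei described here. Of those 1105, 996 passed the limit and 974 were then left unnamed, so that 616 CPM is the level of other nuclei and the name of this class rests on the limits used.

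**Figure D2:**
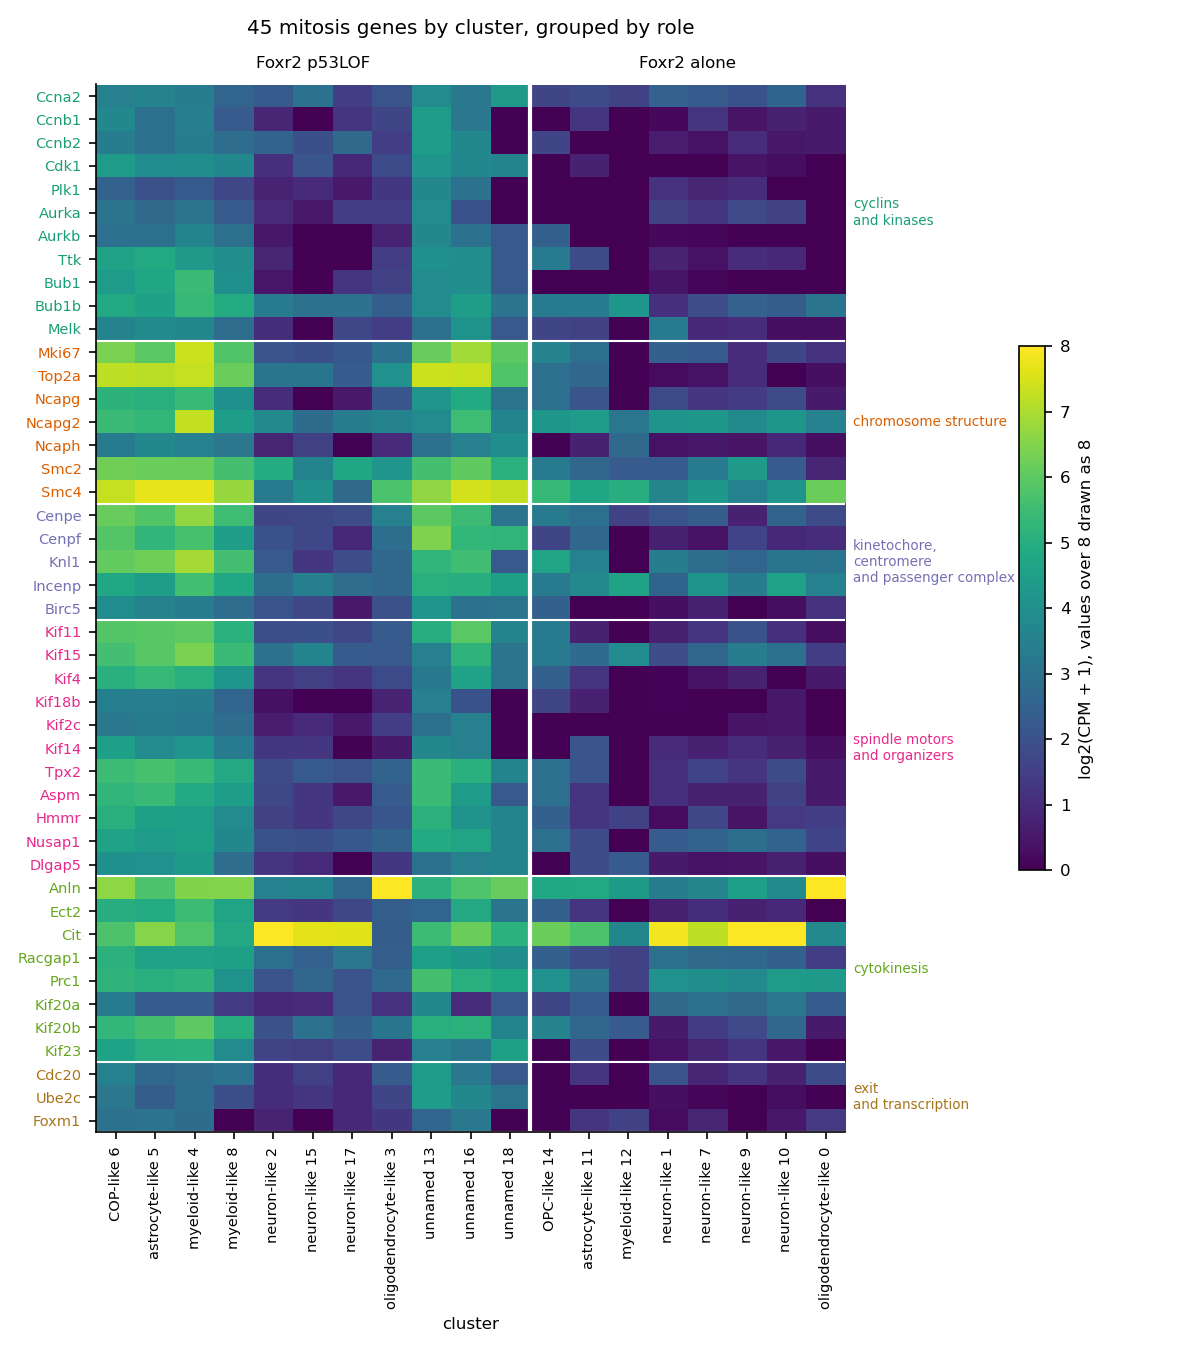
Level of each of the 45 members (y axis, grouped and coloured by role) in each of the 19 clusters (x axis, Foxr2 p53LOF at left and Foxr2 alone at right, each cluster shown for the library with most of its nuclei), as log2(CPM + 1) on the colour scale. Most members are brightest in the COP-like, astrocyte-like, myeloid-like and unnamed clusters of Foxr2 p53LOF, while Anln is brightest in both oligodendrocyte-like clusters and Cit in the neuron-like clusters.

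Of the chromosome structure genes, Top2a, which codes for topoisomerase II alpha, stood at 149 CPM in COP-like, 142 CPM in astrocyte-like and 133 CPM in myeloid-like nuclei of Foxr2 p53LOF, 15.5 CPM in its oligodendrocyte-like and 7.35 CPM in its neuron-like nuclei. In Foxr2 alone, Top2a ranged from 0 UMIs in myeloid-like nuclei to 6.64 CPM in OPC-like nuclei, where 1 of 168 nuclei held it. Mki67 was highest in myeloid-like nuclei of Foxr2 p53LOF at 136 CPM, ahead of unnamed nuclei at 93.8 CPM, COP-like nuclei at 82.3 CPM and astrocyte-like nuclei at 61.2 CPM, with Top2a at 146 CPM in the unnamed nuclei, so that the order of the classes differed between the 2 genes. Smc4, a core condensin subunit, was highest in astrocyte-like nuclei at 206 CPM, with 178 CPM in myeloid-like and 158 CPM in COP-like nuclei. Its partner Smc2 stood at 72.5, 66.1 and 75.5 CPM in the same classes. Ncapg2, a condensin II subunit, was more abundant in myeloid-like nuclei (116 CPM) than in COP-like (42.5 CPM) or astrocyte-like nuclei (38.5 CPM), whereas the condensin I subunit Ncapg was alike in the 3 classes at 33.9, 35.3 and 31.8 CPM.

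Among the kinetochore, centromere and passenger complex genes, Knl1, the scaffold on which kinetochores recruit their checkpoint proteins, stood at 99.9 CPM in myeloid-like, 73.5 CPM in astrocyte-like and 67.0 CPM in COP-like nuclei of Foxr2 p53LOF. Cenpe, a kinetochore motor, stood at 85.9, 55.7 and 69.1 CPM in those classes, and Birc5, the survivin subunit of the passenger complex, at 8.64, 10.9 and 14.0 CPM. Of the spindle motors and organizers, Kif15 stood at 71.1, 60.2 and 47.7 CPM, Kif11, the motor that pushes the spindle poles apart, at 55.2, 59.2 and 56.5 CPM, and Kif2c, a microtubule depolymerase, at 7.84, 9.38 and 8.11 CPM. Of the cyclins and kinases, Cdk1 stood at 14.1, 13.9 and 19.96 CPM, the polo-like kinase Plk1 at 3.36, 2.99 and 4.71 CPM, and Bub1, a checkpoint kinase, stood at 34.9 CPM in myeloid-like, 25.7 CPM in astrocyte-like and 20.2 CPM in COP-like nuclei. Of the exit and transcription genes, the anaphase activator Cdc20 stood at 6.56, 5.39 and 10.5 CPM and Foxm1, a transcription factor of G2 genes, at 4.32, 7.19 and 7.14 CPM. Levels are per UMI and not per gene length, so they compare classes and not genes.

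Shares of nuclei with mitosis RNA were compared with depth held equal. Each nucleus was thinned to 1000 UMIs, leaving out 134 nuclei with fewer UMIs in Foxr2 p53LOF and 1084 in Foxr2 alone. A UMI of Mki67 was then found in 3.76% of nuclei (interval 3.36 to 4.19) in Foxr2 p53LOF and in 0.249% (0.148 to 0.393) in Foxr2 alone, and without thinning in 10.6% and 1.55%. With nuclei limited to at least 1000 genes and fragments the thinned shares were 3.38% and 0.456%. With the fragment limits applied to peak counts they were 3.25% and 0.153%. Neuron-like nuclei gave 0.355% in both libraries after thinning, at median depths of 9949 and 7319 UMIs before it. These neuron-like nuclei made up 15 of the 18 thinned nuclei with Mki67 in Foxr2 alone, where glia-like nuclei gave 0.111% (0.0229 to 0.324), so that no share of glia-like nuclei above the neuron-like one was detectable there. The neuron-like share is no fixed background for every member, since that of Top2a was 0.888% (0.543 to 1.37) in Foxr2 p53LOF and 0.0473% (0.00573 to 0.171) in Foxr2 alone. In Foxr2 p53LOF the Mki67 share was 8.75% (7.44 to 10.2) in myeloid-like, 4.90% (3.70 to 6.34) in astrocyte-like, 4.58% (3.42 to 5.99) in COP-like, 7.16% (5.06 to 9.77) in unnamed and 0.992% (0.556 to 1.63) in oligodendrocyte-like nuclei.

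At least 3 different members of the 43 were found in 6.26% of the thinned Foxr2 p53LOF nuclei, against 0.0830% for Foxr2 alone. The shares were 24.9% and 4.05% without thinning, and 10.2% and 0.802% with at least 2 members in thinned nuclei, and with the fragment limits applied to peak counts that of Foxr2 alone was 0.0340%. By this measure astrocyte-like (12.8%, 10.9 to 14.9), COP-like (11.9%, 10.0 to 14.0) and myeloid-like nuclei (11.4%, 9.90 to 13.0) of Foxr2 p53LOF had overlapping intervals, and its neuron-like nuclei gave 0.0444%. None of the 279 thinned myeloid-like nuclei of Foxr2 alone reached it, which by the exact interval allows a share of up to 1.31%. In the whole of that library 6 of 7232 thinned nuclei did, of which 3 were neuron-like and 1 each astrocyte-like, OPC-like and oligodendrocyte-like.

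Within a class, the members were then read in nuclei with a UMI of Mki67 and in nuclei without one. Mki67 itself was left out because it made the split. Myeloid-like nuclei of Foxr2 p53LOF held the most nuclei with Mki67 (275), and there the other 42 of the 43 members summed to 4367 CPM in nuclei with Mki67 and to 499 CPM in nuclei without, a log2 ratio of 3.13 (3.06 to 3.20). In COP-like nuclei (257 with Mki67) the sums were 3893 and 402 CPM, a log2 ratio of 3.28 (3.22 to 3.33), and in astrocyte-like nuclei (186) 4956 and 505 CPM, a log2 ratio of 3.30 (3.24 to 3.35). A nucleus with Mki67 held RNA of a median of 11, 13 and 19 different members in these classes, against 1, 2 and 2 without it. Nuclei with Mki67 were also deeper, with medians of 4184 against 2536 UMIs in myeloid-like and 12519 against 8809 UMIs in COP-like nuclei. With every nucleus thinned to 2000 UMIs, 33 of 35 members with enough UMIs were at least 4-fold higher in myeloid-like (1.42% of all genes) and 32 of 35 in COP-like nuclei (0.97% of all genes).

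Of the 44 members other than Mki67, 39 were at least 4-fold higher in Mki67 nuclei of the myeloid-like class, where 1.47% of all genes tested were (12414 genes with at least 20 UMIs). In COP-like nuclei it was 43 of 44 (1.4% of all genes) and in astrocyte-like nuclei 41 of 44 (1.47% of all genes), and all 44 were at least 2-fold higher in each of the 3 classes (4.38%, 4.42% and 4.3% of all genes). The median log2 ratio of the members was 3.52, 3.41 and 3.38 in myeloid-like, COP-like and astrocyte-like nuclei, against 0.00, 0.05 and 0.00 over all genes tested. Of a list of 54 other mitosis genes, 35 of 53 tested, 38 of 54 and 40 of 54 were at least 4-fold higher in the 3 classes, and of 40 DNA replication genes 13, 9 and 15 were. In myeloid-like nuclei the other mitosis genes ran from Troap (log2 ratio 5.22) and the spindle protein Spag5 (4.44) down to Mis12 (-0.03) and securin, Pttg1 (-0.54), and the replication genes from E2f7 (4.71) and the origin licensing factor Cdc6 (3.34) down to Rfc3 (0.16) and Gins2 (-0.37).

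By role, the spindle motors and organizers had a median log2 ratio of 3.86 in myeloid-like, 4.14 in COP-like and 3.85 in astrocyte-like nuclei and all 11 of them were at least 4-fold higher in each. The 5 kinetochore, centromere and passenger complex genes had medians of 3.52, 4.03 and 4.16. Cytokinesis genes had medians of 3.56, 3.44 and 3.04, cyclins and kinases of 3.16, 3.08 and 3.28, chromosome structure genes of 2.78, 2.36 and 2.83, and the 3 exit and transcription genes of 1.75, 2.90 and 2.69. The highest member in myeloid-like nuclei was Kif23, the kinesin of centralspindlin, with 163 UMIs in the 275 nuclei with Mki67 and 11 in the 1425 without, or 104 against 2.35 CPM (log2 ratio 5.47, 4.59 to 6.498). Top2a stood at 435 against 31.6 CPM (log2 ratio 3.78, 3.52 to 4.05). The lowest were Ncapg2 with 188 against 91.9 CPM (1.03, 0.81 to 1.25), Cdc20 with 12.1 against 4.70 CPM (1.37, 0.40 to 2.32) and Anln with 186 against 57.2 CPM (1.70, 1.46 to 1.95), followed by Ube2c (1.75) and Cdk1 (1.91). In COP-like nuclei the single member under 4-fold was Anln (1.29), and in astrocyte-like nuclei those under it were Smc4 (1.74), Cit (1.80) and Plk1 (1.85).

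The genes outside the members with the highest ratios in myeloid-like nuclei, among those with at least 100 UMIs there, were Neil3, a DNA glycosylase (log2 ratio 4.95), Shcbp1 (4.39), Parpbp (4.39), the kinetochore gene Ndc80 (4.28) and Cdca2 (4.13). Counts of members at least 4-fold higher were alike when nuclei were split by Top2a in place of Mki67 (39 of 44 in myeloid-like and 42 of 44 in COP-like nuclei, with 1.51% and 1.53% of all genes).

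**Figure D3:**
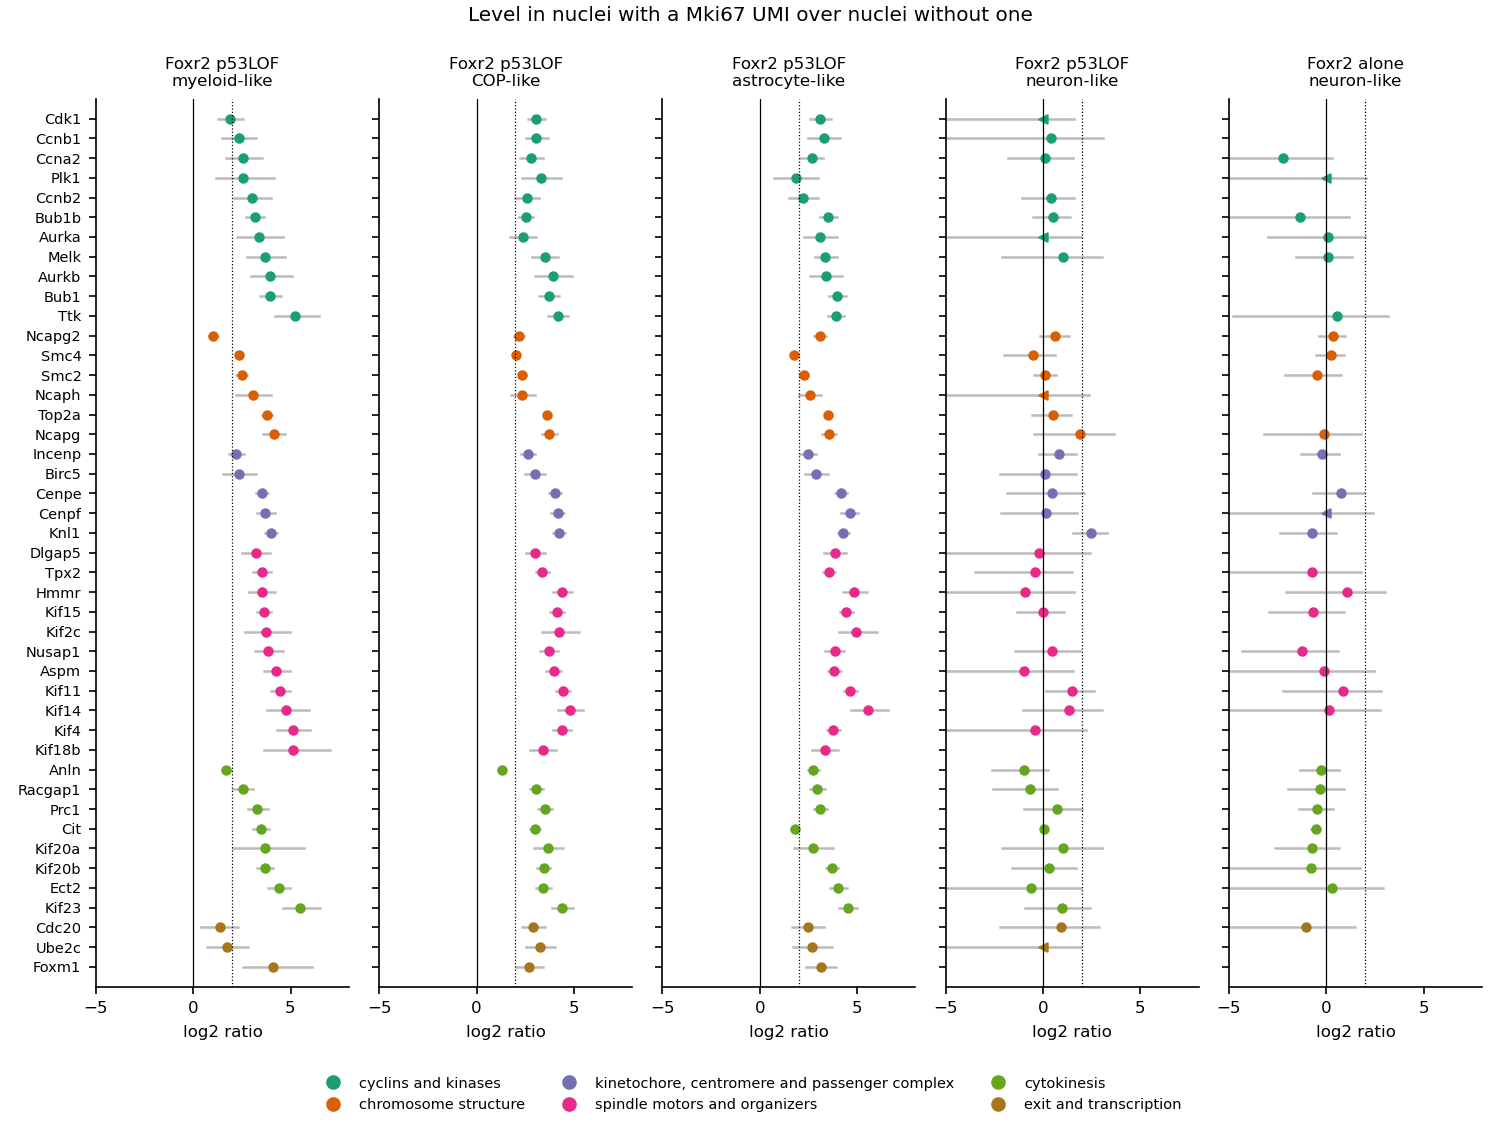
Log2 ratio of the CPM of each member (y axis, coloured by role) in nuclei with a Mki67 UMI over nuclei of the same class without one (x axes), in 5 classes, with grey 95% intervals cut at the axis ends, a dotted line at 4-fold and triangles for members with no UMI on one side, drawn at the 3-count floor. Where the floor would reverse the ratio, the triangle is drawn at 0. Points lie right of 0 for all 44 members in the myeloid-like, COP-like and astrocyte-like panels, and scatter around 0 in both neuron-like panels.

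In neuron-like nuclei a UMI of Mki67 came with a small difference in the other members in Foxr2 p53LOF and with none that was detectable in Foxr2 alone. In Foxr2 p53LOF, 77 of the 2252 neuron-like nuclei had one without thinning, and the other 42 members summed to 184 CPM in those and to 142 CPM in the rest, a log2 ratio of 0.37 (0.14 to 0.59). In Foxr2 alone, where 119 neuron-like nuclei had one, the sums were 110 and 130 CPM, a log2 ratio of -0.24 (-0.53 to 0.02), and 39.5% of those nuclei held no RNA of any of the 42. Of the members with at least 20 UMIs, 1 of 37 in Foxr2 p53LOF (Knl1, 15 UMIs in nuclei with Mki67 and 69 in nuclei without, log2 ratio 2.45) and 0 of 29 in Foxr2 alone were at least 4-fold higher, with 0.327% and 0.328% of all genes. At least 2-fold higher were 6 of 37 (4.27% of all genes) and 1 of 29 (3.93% of all genes). At least 2-fold lower were 0 of 37 (761 of all 15895 genes tested) and 4 of 29 (781 of all 17086 genes tested). The unnamed nuclei of Foxr2 p53LOF lay between, with a log2 ratio of 2.10 and 14 of 33 members at least 4-fold higher (0.725% of all genes) and 31 at least 2-fold higher (6.53% of all genes).

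Across the 19 clusters, the members varied in how closely their log2(CPM + 1) followed that of Mki67, a description over clusters that share libraries and depth. Pearson's r was highest for Tpx2, a spindle assembly factor (0.96, Spearman's rho 0.88), Ncapg (0.94, rho 0.91), Cenpf (0.94, rho 0.84) and Top2a (0.94, rho 0.87). In all, 15 of 44 members had an r of at least 0.9, with 33 of 15211 genes having one over all. The lowest were Cit (-0.17, rho -0.28), Kif20a (0.24, rho 0.15) and Anln (0.32, rho 0.50), all cytokinesis genes. The remaining cytokinesis genes, among them Ect2, Racgap1 and Kif23, were above 0.5.

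The level of Anln was highest in a class with little other mitosis RNA. Oligodendrocyte-like nuclei held 564 CPM of it in Foxr2 p53LOF and 788 CPM in the Foxr2 alone library, where it made up 71.2% and 82.4% of the UMIs of all 45 members. In nuclei of these classes with no UMI of Mki67 or Top2a it was as high, at 575 CPM (551 to 599) in Foxr2 p53LOF and 788 CPM (761 to 817) in Foxr2 alone, and in the 84 oligodendrocyte-like nuclei of Foxr2 p53LOF with Mki67 or Top2a it stood at 405 CPM (329 to 494). In the classes with mitosis RNA the order was the other way round. Anln was at 17.5 CPM without and 102 CPM with Mki67 or Top2a in the astrocyte-like cluster of Foxr2 p53LOF, at 65.5 and 140 CPM in its COP-like cluster and at 47.7 and 153 CPM in its myeloid-like cluster 4, with 65.2 and 202 CPM in cluster 8. The neuron-like level was 10.1 CPM for Foxr2 p53LOF and 11.5 CPM for Foxr2 alone. In Foxr2 p53LOF, Anln was thus higher with Mki67 or Top2a in COP-like, astrocyte-like and myeloid-like nuclei and lower with them in oligodendrocyte-like nuclei. Of the 1526 oligodendrocyte-like nuclei, however, 1 held both Mki67 and Top2a, against 161 of the 1092 COP-like nuclei. Whether the 84 oligodendrocyte-like nuclei with either UMI were in the cycle was not tested. RNA of the vector GFP was read at 217 CPM among myeloid-like and at 76.2 CPM among neuron-like nuclei of this library, while 21 of 1700 and 15 of 2252 of them had a vector chromatin count, and the part of RNA from other nuclei in the low Anln levels was not tested.

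Cit was read mainly in neurons. Neuron-like nuclei held 288 CPM of it in Foxr2 p53LOF and 227 CPM in the Foxr2 alone library, 64.7% and 61.1% of the UMIs of all 45 members there, and at 287 CPM (281 to 295) and 229 CPM (224 to 235) in neuron-like nuclei without Mki67 or Top2a. Oligodendrocyte-like nuclei were lowest, with 4.17 CPM for Foxr2 p53LOF and 12.5 CPM for Foxr2 alone. In the classes with mitosis RNA it was also tied to the cycle, with a log2 ratio between nuclei with and without Mki67 of 3.46 in myeloid-like, 2.98 in COP-like and 1.80 in astrocyte-like nuclei.

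The condensin gene Smc4 was also read in nuclei without Mki67 and Top2a. It stood there at 132 CPM in astrocyte-like, 81.0 CPM in myeloid-like and 68.6 CPM in COP-like nuclei of Foxr2 p53LOF, and in oligodendrocyte-like nuclei at 49.8 CPM for Foxr2 p53LOF and 72.2 CPM for Foxr2 alone. Smc4 was higher again where Mki67 or Top2a was found, at 312 CPM in the astrocyte-like and 264 CPM in the COP-like cluster. Ncapg2 stood at 89.9 CPM in myeloid-like nuclei without Mki67 and Top2a. Split by cluster, a view chosen after its values were seen, Ncapg2 stood at 131 CPM (118 to 146) without and 187 CPM (167 to 208) with Mki67 or Top2a in cluster 4. In cluster 8, which carried the microglia genes, Ncapg2 stood at 12.5 CPM (7.403 to 19.7) without and 61.1 CPM (37.3 to 94.3) with them, and in the myeloid-like cluster of Foxr2 alone at 7.74 CPM.

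**Figure D4:**
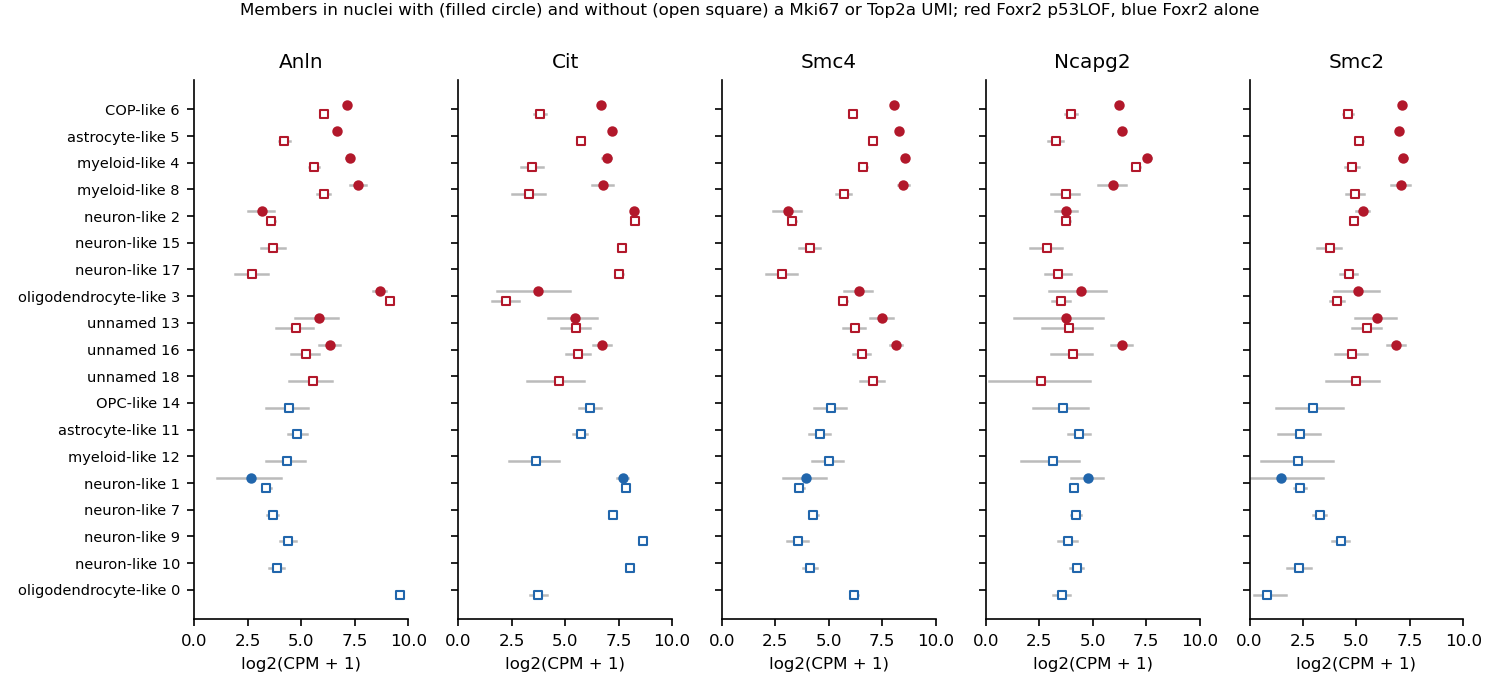
Level of Anln, Cit, Smc4, Ncapg2 and Smc2 as log2(CPM + 1) (x axes) in each cluster (y axis), in nuclei with (filled circles) and without (open squares) a UMI of Mki67 or Top2a, red for Foxr2 p53LOF and blue for Foxr2 alone, with grey 95% intervals. Anln without them is highest in the oligodendrocyte-like clusters 3 and 0, Cit in the neuron-like clusters, and Ncapg2 in myeloid-like cluster 4.

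Over the whole Foxr2 p53LOF library, nuclei without Mki67 and Top2a held 74.0% of all UMIs. They held 75.1% of those of Cit (74.2 to 76.0) and 65.5% of those of Anln (64.2 to 66.8), followed by Ccnb2 (47.1%), Ncapg2 (41.7%) and Smc2 (40.1%). Kif11 (9.55%) and Ttk (9.78%) had the lowest shares. In Foxr2 alone these nuclei held 97.1% of all UMIs, 99.3% of those of Anln and 97.7% of those of Cit, which leaves little room for a gene to stand out. When nuclei had to lack RNA of all 43 members, 29.1% and 75.0% of Anln UMIs and 17.8% and 39.2% of Cit UMIs lay in them in Foxr2 p53LOF and Foxr2 alone, beside 18.3% and 42.2% of all UMIs. Lack of a Mki67 or Top2a UMI does not by itself place a nucleus outside the cycle. In Foxr2 p53LOF, 26.3% of Top2a UMIs lay in nuclei without Mki67, and 19.0% of Mki67 UMIs in nuclei without Top2a.

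Between the libraries, the members were higher in Foxr2 p53LOF in glia-like and immune-like nuclei, where the sum of 43 had a log2 ratio of 2.90 (2.81 to 3.00, 7.48-fold) and 3.62 (3.29 to 3.97, 12.3-fold). The immune-like nuclei were the myeloid-like ones. Within the glia, astrocyte-like nuclei had a log2 ratio of 3.07 (2.89 to 3.25), oligodendrocyte-like nuclei of 0.53 (0.38 to 0.68) and OPC-like nuclei of -0.08 (-0.51 to 0.35). COP-like nuclei, 1092 in Foxr2 p53LOF and 0 in Foxr2 alone, entered the glia-like sum of 1 library only. The part of RNA from other nuclei in the oligodendrocyte-like ratio was not tested. In neuron-like nuclei the log2 ratio was 0.15 (0.08 to 0.21). As UMIs per nucleus, which carry the difference in depth, the log2 ratios were 5.004 in glia-like, 5.08 in immune-like and 0.67 in neuron-like nuclei.

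Of the 45 members, 41 were at least 2-fold higher in glia-like nuclei of Foxr2 p53LOF and 1, Anln, at least 2-fold lower, when 24.6% of all genes were higher and 24.6% lower. Among the 41 were 5 with no UMI in Foxr2 alone, which met the count minimum through Foxr2 p53LOF and could not come out lower. Of the 40 members with a UMI in Foxr2 alone, 36 were at least 2-fold higher and 1 lower. In immune-like nuclei 32 were at least 2-fold higher (14.8% of all genes) and 0 lower (21.6% of all genes). In that class 25 of the 45 had no UMI in Foxr2 alone and met the count minimum through Foxr2 p53LOF, so that they could only come out higher, and 16 of the 32 were among them. Of the 20 members with a UMI in Foxr2 alone, 16 were at least 2-fold higher and 0 lower. In neuron-like nuclei 18 of 44 tested were higher (18.5% of all genes) and 5 lower (26.5% of all genes). The median log2 ratio of the members was 3.74, 2.29 and 0.72 in glia-like, immune-like and neuron-like nuclei, against 0.06, -0.06 and -0.12 over all genes. In the glia-like median the 5 members with no UMI in Foxr2 alone stood at the 3-count floor. In the immune-like median those 25 members stood at it, or at a log2 ratio of 0 where the floor would have reversed the ratio, as for Kif20a. Astrocyte-like nuclei alone gave 39 higher and 0 lower (22.1% and 28.7% of all genes), and oligodendrocyte-like nuclei 19 higher and 3 lower of 31 tested (15.9% and 23.8%). In OPC-like nuclei 7 members could be tested, with 3 higher and 1 lower (8.74% and 21.3%). In Foxr2 alone, 8 members had no UMI in astrocyte-like, 11 in oligodendrocyte-like and 13 in OPC-like nuclei. Any of them that were tested met the count minimum through Foxr2 p53LOF and could not come out lower. Of the 54 other mitosis genes, 42 were higher and 2 lower in glia-like, 26 and 2 in immune-like and 9 and 13 in neuron-like nuclei, and of the 40 replication genes 28 and 1, 22 and 2, and 7 and 8.

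Among members with a UMI in both libraries, the largest ratios in glia-like nuclei were those of Cdk1 (396 UMIs in Foxr2 p53LOF and 1 in Foxr2 alone, log2 ratio 6.45, 3.96 to 11.8), Top2a (3329 and 12 UMIs, 5.94, 5.13 to 6.89) and Kif11 (1306 and 6 UMIs, 5.59, 4.46 to 7.03). Mki67 stood at 62.1 against 3.39 CPM. Bub1 had 514 UMIs in Foxr2 p53LOF and 0 in Foxr2 alone, at least 37.8-fold higher against the floor, and Kif2c, Aurka, Ube2c and Plk1, also with 0 UMIs in Foxr2 alone, were at least 14.8-fold, 11.5-fold, 11.0-fold and 6.99-fold higher. At the other end were Anln with 152 against 534 CPM (-1.81, -1.88 to -1.75), Kif20a with 5.83 against 3.90 CPM (0.58, -0.06 to 1.28) and Prc1 with 29.2 against 15.8 CPM (0.89, 0.58 to 1.22). The glia-like nuclei of Foxr2 alone were mostly oligodendrocyte-like, the class in which Anln was highest.

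In immune-like nuclei, Mki67 had 852 UMIs in Foxr2 p53LOF and 0 in Foxr2 alone, 25.8-fold higher against a floor of 3 counts in that class. Top2a had 830 and 0 UMIs, 25.1-fold higher against the same floor, and Cenpe 537 and 2 UMIs (log2 ratio 4.61, 2.75 to 7.66). The floor limited the low members. Foxm1 had 27 and 3 UMIs (-0.29, -1.99 to 2.07), Ube2c 34 and 0 UMIs, 1.03-fold higher against the floor, and Kif20a 21 and 0 UMIs, for which no fold can be given. The 567270 UMIs of this class in Foxr2 alone set the level of the floor.

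In neuron-like nuclei members differed in both directions. Top2a stood at 7.35 CPM (185 UMIs) in Foxr2 p53LOF and at 0.272 CPM (9 UMIs) in Foxr2 alone (log2 ratio 4.75, 3.799 to 5.91), Cdk1 at 1.31 and 0.0605 CPM (4.44, 2.47 to 7.54) and Birc5 at 2.90 and 0.333 CPM (3.12, 2.20 to 4.19). Mki67 did not follow them, with 3.26 and 3.66 CPM. Other classes of Foxr2 p53LOF held Top2a at up to 149 CPM and GFP was read in neuron-like nuclei as given above, and the part of RNA from other nuclei in these low levels was not tested. Lower in Foxr2 p53LOF were Kif20a with 27 and 210 UMIs (-2.57, -3.20 to -1.98), Prc1 with 82 and 520 UMIs (-2.27, -2.63 to -1.93) and Melk, a kinase of the cycle, with 27 and 152 UMIs (-2.10, -2.75 to -1.50). The genes that overlap Prc1 and Kif20a moved less in the same nuclei, Rccd1 with a log2 ratio of -0.59 (-0.73 to -0.45) and Cdc23 with -0.19 (-0.30 to -0.08). The neuron clusters themselves differed, cluster 2, with 1843 of the 2252 neuron-like nuclei of Foxr2 p53LOF, being led by genes such as Zfp804b, Htr2c and Glra1, and cluster 1, with 2328 of the 4247 of Foxr2 alone, by genes such as Penk, Rarb and Tac1, and the part of this in the ratios was not tested.

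**Figure D5:**
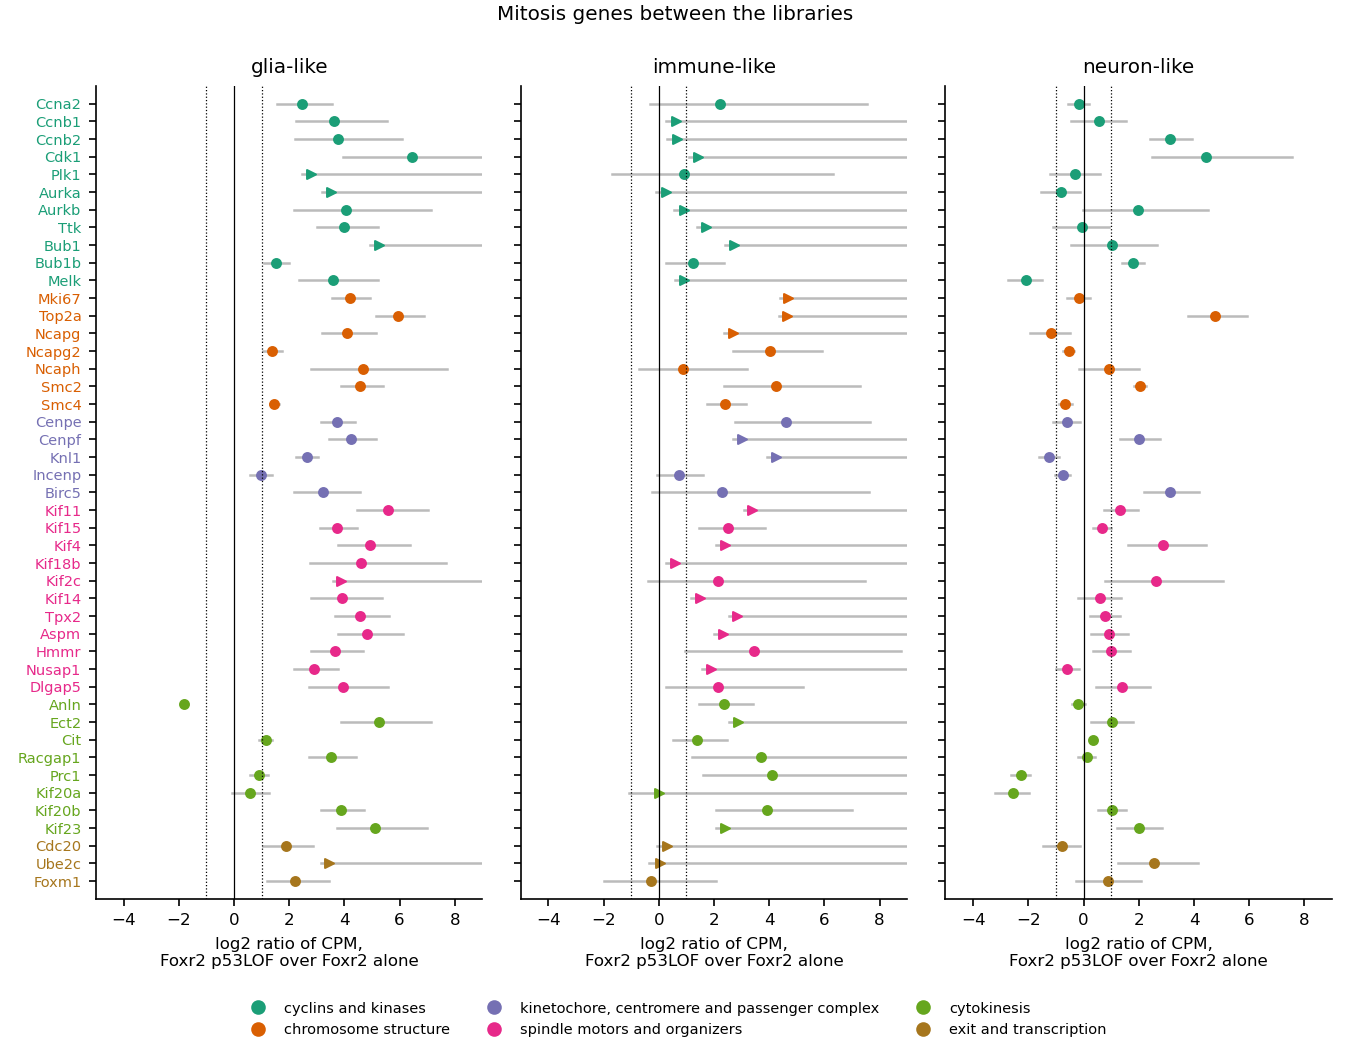
Log2 ratio of CPM, Foxr2 p53LOF over Foxr2 alone (x axes), of each member (y axis, coloured by role) in glia-like, immune-like and neuron-like nuclei, with grey 95% intervals cut at the axis ends, dotted lines at 2-fold and triangles for members with no UMI in Foxr2 alone, drawn at the 3-count floor. Where the floor would reverse the ratio, the triangle is drawn at 0. In glia-like nuclei all members but Anln lie right of 0, and in neuron-like nuclei they lie on both sides, from Kif20a at -2.57 to Top2a at 4.75.

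Chromatin counts on the Akaluc and GFP vector, which do not use RNA, marked 656 of 3817 glia-like nuclei of Foxr2 p53LOF (17.2%). The 43 members summed to 1796 CPM in these and to 1045 CPM in the glia-like nuclei without such a count, a log2 ratio of 0.78 (0.75 to 0.81). Of the members, 6 were at least 2-fold higher (1.44% of all genes) and Anln was at least 2-fold lower (86.8 against 176 CPM, log2 ratio -1.02), a difference that turned within classes, with 114 against 93.3 CPM (0.28, 0.11 to 0.45) in COP-like and 56.2 against 49.995 CPM (0.17, -0.10 to 0.43) in astrocyte-like nuclei. Vector counts were spread unevenly over the glia, with 300 of the 1092 COP-like, 342 of the 1105 astrocyte-like and 12 of the 1526 oligodendrocyte-like nuclei having one. Within COP-like nuclei the log2 ratio was 0.77 (0.73 to 0.82), with 8 members at least 2-fold higher (1.26% of all genes), and within astrocyte-like nuclei 0.15 (0.10 to 0.20), with 0 at least 2-fold higher (0.666% of all genes). Ube2c, a ubiquitin enzyme of mitotic exit, had 8 UMIs with and 33 without a vector count there (log2 ratio -1.08, -2.41 to 0.06). Nuclei with a vector count were deeper, with medians of 11315 against 8958 UMIs in COP-like and 8341 against 7669 UMIs in astrocyte-like nuclei. Finding a vector count also depends on the chromatin counts of a nucleus, which were higher in nuclei with a Mki67 UMI. Their medians were 14787 against 12080 in COP-like and 13049.5 against 9780 in astrocyte-like nuclei of Foxr2 p53LOF. The part of either depth in these ratios was not tested. In myeloid-like nuclei, where mitosis RNA was as high, 21 of 1700 nuclei had a vector count.

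Open chromatin at the starts of the members varied less between classes than their RNA. A peak lay within 1000 bases of the start of 44 of the 45 members in each of the 3 libraries, Foxr2 alone replicate 2 included, and Kif14 had none, against 59.6%, 58.6% and 56.8% of all genes in Foxr2 p53LOF and in Foxr2 alone replicates 1 and 2. Per 1000000 chromatin counts of a class, those in the peaks of the 43 members summed to between 1192 in neuron-like nuclei of Foxr2 alone and 1746 in myeloid-like nuclei of Foxr2 p53LOF, whereas RNA of the same members ran from 130 to 1605 CPM. Myeloid-like nuclei of Foxr2 alone, with the lowest RNA, had 1646. Each library had its own peak list, of 112924 peaks in Foxr2 p53LOF and 135201 in Foxr2 alone replicate 1. Chromatin sums of the 2 libraries are therefore not on the same scale. No such range was taken over all genes. Within a class, nuclei with Mki67 RNA had more counts at 40 of 44 member starts in myeloid-like (median log2 ratio 0.25), 38 of 44 in COP-like (0.26) and 36 of 44 in astrocyte-like nuclei (0.37), where 52.0%, 50.8% and 50.1% of all genes with a peak were higher. In neuron-like nuclei it was 14 of 44 (median log2 ratio -0.20, 48.5% of all genes higher) for Foxr2 p53LOF and 26 of 44 (0.03, 42.7% of all genes higher) for Foxr2 alone.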

How the data were processed

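Nuclei of mouse brain lesions were profiled by the authors with the 10x Multiome kit, and the submitters' processing notes name Cell Ranger ARC 2.0.0 and genome build mm10. The deposited matrices hold raw counts, UMIs per gene and chromatin counts per peak, with 13 vector features, and were not normalized. The libraries held 10379 barcodes and 96929539 UMIs (Foxr2 p53LOF) and 10096 barcodes and 59719847 UMIs (Foxr2 alone replicate 1). Foxr2 alone replicate 2 held 1650 barcodes and 99112 peaks.

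The members and all gene lists were chosen with earlier results of these data known, and the rule for naming clusters was set after the data were seen. A name needed at least 3 markers high and no class of another kind within 1 of its median log2 fold. The glial classes counted as 1 kind, and myeloid and lymphocyte as another. Among close classes of the same kind, the name went to the class with most markers among the 10 leading genes, then to the higher median. Nuclei were kept with at least 400 genes and 400 fragments (peak counts divided by 2), under 5% mitochondrial UMIs and below the upper limits of genes, UMIs and fragments that the study states per library. Scrublet (expected rate 8%) marked 353 and 540 doublets, which were removed. UMIs were scaled to 10000 and log-transformed, and 2000 variable genes without the members and compared lists, 30 principal components, 20 neighbours and Leiden clustering at resolution 0.5 gave the clusters (Python 3.11.15, scanpy 1.11.5, leidenalg 0.10.2, scipy 1.17.1). Shares have exact Clopper-Pearson intervals, CPM and their ratios exact Poisson intervals. A gene with no UMI on one side was set to 3 counts, and where this would have reversed its ratio the log2 ratio was set to 0. Members were counted at 2-fold between libraries with at least 10 UMIs and at 4-fold in the Mki67 split with at least 20 UMIs. Full values were given for Mki67, Top2a, the extremes of each comparison and members over 100 CPM in nuclei without Mki67 and Top2a, with other members described by role. The scripts were tested on simulated data. Alternatives were other limits, doublets kept, resolution 1.0, other thinning and other splits.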

Additional observations from a re-analysis of the deposited data

How the results depend on the processing

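In all, 26 results were recomputed under 16 alternatives, giving 113 values, of which 71 stayed within their counting interval or within 1.5 times the count, 42 moved and 0 reversed. Most of the results were sums, shares or counts, which have no sign to reverse. Without Anln and Cit the summed CPM was 1462 (COP-like), 1434 (astrocyte-like), 224 (oligodendrocyte-like), 147 (neuron-like) and 1605 (immune-like) in Foxr2 p53LOF, and 133 (neuron-like) and 155 (oligodendrocyte-like) in Foxr2 alone. With fragment limits applied to peak counts the sum of 45 was 1399 (COP-like), 1357 (astrocyte-like) and 363 CPM (neuron-like, Foxr2 alone), the glia-like log2 ratio between libraries 2.70, and the shares with Mki67 and with at least 3 members 3.25% and 5.19% in Foxr2 p53LOF. With doublets kept the sum was 1529 (astrocyte-like) and 1558 CPM (immune-like), and 98.7% of Anln UMIs lay outside Mki67 and Top2a nuclei in Foxr2 alone. With at least 1000 genes and fragments the sum was 1646 (COP-like), 616 (astrocyte-like, a class then of 118 nuclei, 7 of them in the class as reported), 1797 (immune-like) and 1055 CPM (oligodendrocyte-like, Foxr2 alone), the glia-like log2 ratio 2.67 and the Mki67 share of Foxr2 alone 0.456%. At resolution 1.0 the immune-like sum was 1883 CPM. As UMIs per nucleus the log2 ratios were 5.004 (glia-like), 0.67 (neuron-like) and 5.08 (immune-like).

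For Foxr2 p53LOF, the Mki67 share was 10.6% without thinning and 6.21% at 2000 UMIs, and the share with 3 members 24.9% and 9.49%, or 10.2% with at least 2 members. For Foxr2 alone these were 1.55% and 0.735%, 4.05% and 0.347%, and 0.802%. In nuclei with none of the 43 members lay 29.1% (Anln) and 17.8% (Cit) of UMIs in Foxr2 p53LOF and 75.0% and 39.2% in Foxr2 alone. Split by 2 UMIs of the vector GFP, the glia-like log2 ratio was 0.96. Within 100 bases, 21.6% of member promoters held a CHR element and CCAAT. The cause of these shifts was not tested, apart from those built into a smaller gene set, depth or window and the change of nuclei in the astrocyte-like class. No paired analysis was possible because counts of 1 library per genotype were analysed, and no replicate could be left out. In Foxr2 alone, the 423 myeloid-like nuclei and their depth limited what could be read of single members.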
